A study of Capra hircus with 12 samples.

Results

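A group of 40 genes that carry out or control mitosis was followed in cultured goat jaw joint cells. They were taken by gene symbol from a written list, and 40 of the 28910 rows of the gene count table of each cell layer matched it. Every one of the 40 genes had a single row, and every one passed the rule for testing in both layers, which asked for at least 10 counts in at least 3 of the 6 libraries of a layer. The cells came from the condylar fibrocartilage of the temporomandibular joint (TMJ) of female goats of 6 to 9 months, obtained from abattoirs. Superficial-layer cells (SLC) and middle-layer cells (MLC) were freed with collagenase, frozen, and used at passages 3 to 5. RNA sequencing was done in 12 libraries, 3 for each combination of layer and treatment. The treatments were IL-1β alone, an inflammatory cytokine given at 10 ng for 1 h, and IL-1β + LOXL2, in which cells were first left overnight with an adenovirus (Ad5-LOXL2) that carries lysyl oxidase-like 2, an enzyme that crosslinks collagen and elastin. All 12 libraries therefore come from cells that received IL-1β, and vehicle-treated cells were not analysed here. An empty Ad5 virus is named in the study's methods as the control in a flow cytometry assay of the same kind of cells. Whether the sequenced cells given IL-1β alone also received it, and how many goats stand behind the 3 replicates of a group, is not given in the sources used here.

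Mitosis is driven by cyclin-dependent kinase 1 bound to a B-type or A-type cyclin, which with the Polo and Aurora kinases triggers chromosome condensation and spindle assembly. The spindle checkpoint holds back the anaphase-promoting complex until every kinetochore is attached, and the complex then marks cyclin B and securin for destruction. Most of these genes are transcribed late in the cell cycle, so their mRNA in a culture depends both on how many cells are cycling and on how much each cell makes. In bulk samples, fewer cycling cells and less RNA per cycling cell cannot be told apart. Chondrocytes of adult cartilage divide rarely, whereas cells of the same tissue divide in serum on plastic.

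Library totals ranged from 14158607 to 28931652 counts. The libraries labelled IL-1β + LOXL2 did not hold more LOXL2 mRNA. Normalized LOXL2 counts were 11583, 11647 and 11894 in SLC with IL-1β and 8541, 10124 and 10387 in SLC labelled IL-1β + LOXL2, and the log2 difference of -0.27 had an adjusted p of 0.106. In MLC they were 14291, 16294 and 15189 against 15249.9, 14740.4 and 13808, with a log2 difference of -0.07 (adjusted p = 0.602). The species of the delivered LOXL2 sequence is not given in the sources used here, so the goat gene's count may not register it. For this reason the libraries are called LOXL2-labelled below, and each direction given for LOXL2 rests on these labels. The first SLC LOXL2-labelled library stood apart from the other two of its group, with a chi-square per degree of freedom of 169 and 62.0 against 31.0 for the remaining pair, and in MLC the first LOXL2-labelled library was the more distant one too (16.2 and 36.0 against 6.10). The cartilage markers COL2A1 and COL9A1 were at 0 in all 3 SLC IL-1β libraries and at 193.6 to 387 and 213.9 to 285 normalized counts in MLC with IL-1β, so SLC lacked these 2 defining markers while COL1A1, the main collagen of fibrocartilage, was abundant in both layers. The leukocyte marker PTPRC had at most 1.9 normalized counts in any library, whereas CD14, a marker of monocytes and macrophages, had 879.8 to 2474 and was higher in MLC under IL-1β (0.49 ± 0.12, adjusted p = 0.00351). Of the 4 macrophage and leukocyte markers tested there, CD14 and CD3E were above 0 and CSF1R and CD68 below 0. Only CD14 passed the threshold. CTSK, a protease gene used as an osteoclast marker, had 32318 to 61819 and was lower in MLC under IL-1β (-0.37 ± 0.12, adjusted p = 0.0201). It was the only 1 of 5 tested markers of bone cells below 0. The other 4, IBSP, SP7, BGLAP and ACP5, were above 0. ACP5, also an osteoclast marker, had only 11.7 to 31.6 normalized counts. None of the muscle markers reached the rule for testing.

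Cells of the middle layer held more mRNA of each of the 40 mitotic genes than cells of the superficial layer. Under IL-1β, all 40 genes were higher in MLC with an adjusted p under 0.05 (edgeR quasi-likelihood test, Benjamini-Hochberg adjustment over 14446 genes), against 23.9% of all genes tested. The median difference was 1.13 on the log2 scale, or 2.19-fold, while the median over all genes was -0.01. For all 40 genes the lowest MLC library lay above the highest SLC library, a separation that 26.4% of all genes showed in that direction. Differences ranged from 0.35 for BUB3 to 1.61 for UBE2C. Reads of the 40 genes together made up 1084, 1329 and 1257 counts per 1e6 (CPM) in the SLC IL-1β libraries and 2799, 2159.7 and 2690.2 CPM in the MLC IL-1β libraries.

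The difference between layers was also present in the LOXL2-labelled libraries. There 38 of the 40 genes were higher in MLC past the threshold, against 9.16% of all genes, with a median of 1.47 on the log2 scale, or 2.77-fold. The other 2 were CDC25C (log2 difference 0.99 ± 0.34 (SE), adjusted p = 0.0958) and SMC2 (1.48 ± 0.44, adjusted p = 0.0595). Replicate numbers paired these libraries only in part, with 4 of 6 correlating best with their own number. In the fit with the replicate block all 40 genes passed, against 14.3% of all genes. All 40 genes had non-overlapping groups here too, against 17.9% of all genes. Leaving out any single library but the first or second SLC LOXL2-labelled one left 33 genes past the threshold, against 4.83% to 6% of all genes higher. Without that first library 40 passed, against 16.5%. The 40 genes accounted for 1086, 645 and 776 CPM in SLC labelled LOXL2 and for 2304, 2039 and 2122 in MLC labelled LOXL2. Because cells of the layers were released by different digestion steps and counted in separate tables, layer and preparation cannot be told apart. Cartilage markers moved with layer as well: 10 of 13 tested were higher in MLC and 1 lower under IL-1β, against 23.9% and 22.3% of all genes. ACAN, the main cartilage proteoglycan, had 848 to 944 normalized counts in SLC and 6521 to 8099 in MLC. The summed level of the cartilage markers was 73900 to 76450 CPM in SLC and 73960 to 75760 CPM in MLC. That sum came mostly from COL1A1, COL1A2 and COL3A1, so it says little of the other markers. Macrophage and leukocyte markers summed to 79.3 to 97.9 CPM in SLC and 96.4 to 141 CPM in MLC under IL-1β, mostly from CD14, with PTPRC at 0. Endothelial markers summed to 3.09 to 4.16 and 4.45 to 5.22 CPM. The part of these cell markers in the mitotic difference was not tested.

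**Figure D1:**
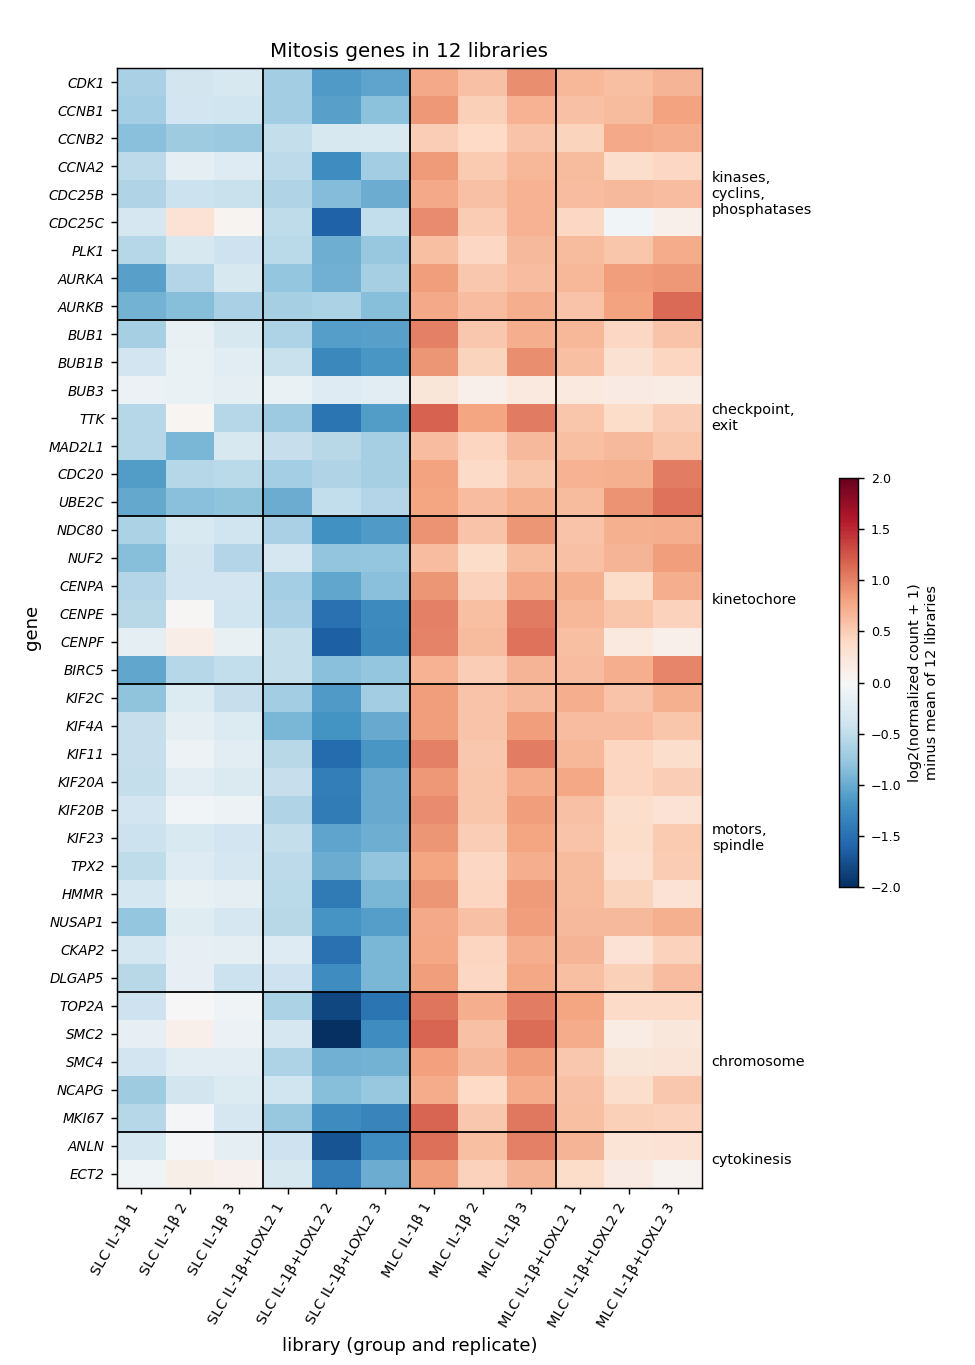
Mitotic genes (rows, grouped by role) in the 12 libraries (columns, named by group and replicate), coloured by log2(normalized count + 1) minus the gene's mean over the 12 libraries, with red above and blue below that mean. All 40 rows are redder in the 6 MLC columns than in the SLC columns of the same treatment, and the second SLC LOXL2-labelled library is the lowest of its group for 33 of 40 genes.

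The kinases, cyclins and phosphatases that start mitosis showed the layer difference throughout, with 9 of 9 higher in MLC under IL-1β and log2 differences from 0.72 to 1.54. CDK1, the kinase that drives entry into mitosis (chr28:29028552-29042931 of the ARS1.2 assembly), had normalized counts of 350.3, 429 and 441 in SLC with IL-1β, 340.4, 249.9 and 264 in SLC labelled LOXL2, 934, 825 and 1052 in MLC with IL-1β, and 871, 839 and 878 in MLC labelled LOXL2. Every MLC library was above every SLC library, and in SLC the LOXL2-labelled libraries lay below the IL-1β libraries without overlap. The layer difference of CDK1 was 1.22 ± 0.10 under IL-1β (adjusted p = 1.88e-07) and 1.61 ± 0.16 in the LOXL2-labelled libraries (adjusted p = 0.000648). CCNB1, which encodes the cyclin B1 partner of CDK1 (chr20:10509503-10519274), gave 548, 669 and 666, then 544, 413 and 495 in SLC, and 1597, 1225 and 1413, then 1313, 1362 and 1534 in MLC, each triplet in the order IL-1β then LOXL2-labelled. Its MLC groups overlapped fully, and its layer difference under IL-1β was 1.19 ± 0.10 (adjusted p = 1.74e-07). PLK1, the Polo kinase that matures centrosomes, had 379.5, 453 and 426 against 387, 286 and 332 in SLC and 859, 752 and 889.5 against 881, 829 and 948 in MLC. In both layers the PLK1 groups overlapped between treatments.

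AURKB, the kinase of the chromosomal passenger complex that corrects faulty attachments, showed 125, 134 and 153 normalized counts in SLC with IL-1β and 152, 156 and 133 in SLC labelled LOXL2. Its MLC counts were 411, 372 and 399.6 with IL-1β and 359, 421 and 528 with the LOXL2 label. Treatment groups overlapped in both layers, and the layer difference of 1.54 ± 0.11 under IL-1β was second among the 40 genes (adjusted p = 2.85e-08). AURKA, the centrosomal Aurora kinase, had 108, 154 and 184 counts in SLC and 413, 336 and 355 in MLC under IL-1β, a difference of 1.32 ± 0.15 (adjusted p = 5.39e-06). CCNB2, encoding the other B-type cyclin, stood out after its values were seen, since its counts of 194, 212 and 208 in SLC with IL-1β were below the 251, 278 and 280.2 of the LOXL2-labelled libraries. In MLC it gave 492, 458 and 516 against 474, 589 and 579, which overlapped. CDC25C, a phosphatase that activates CDK1, was the gene with the fewest counts, at 49.6, 76.9 and 65.8 and 44.2, 19.9 and 44.7 in SLC and 122, 90.1 and 103 and 84, 60.9 and 67.6 in MLC. Its LOXL2-labelled libraries lay below the IL-1β libraries in both layers, with the largest standard errors of this role group. The remaining members were CCNA2, for cyclin A2, and CDC25B, for another such phosphatase, at 2.02-fold and 2.30-fold higher in MLC under IL-1β.

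Spindle checkpoint and mitotic exit genes held both ends of the range. All 7 were higher in MLC under IL-1β, by 0.35 to 1.61. BUB3, a checkpoint protein that binds unattached kinetochores, varied least, with 1288, 1274 and 1237 normalized counts in SLC and 1652, 1502 and 1611 in MLC under IL-1β, a difference of 0.35 ± 0.06 (adjusted p = 0.000332). In contrast UBE2C, the ubiquitin-conjugating enzyme that serves the anaphase-promoting complex (chr13:74094992-74098467), had 263, 298 and 305 in SLC and 919.7, 822 and 869.7 in MLC under IL-1β, a difference of 1.61 ± 0.08 (3.06-fold, adjusted p = 9.84e-10). Its LOXL2-labelled libraries held 268, 378 and 355 (SLC) and 829, 999.6 and 1138 (MLC), overlapping those with IL-1β. CDC20, the activator of the same complex (chr3:18104911-18108909), had 598, 876 and 896 against 812, 859.6 and 818 in SLC and 2274, 1702 and 1920.0 against 2098, 2118 and 2650.0 in MLC. Treatment groups of CDC20 overlapped in both layers, and its layer difference was 1.33 ± 0.13 under IL-1β (adjusted p = 8.85e-07).

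BUB1, the checkpoint kinase (chr11:1501027-1537351), gave 229, 327 and 291 in SLC with IL-1β, 237, 168 and 169.7 in SLC labelled LOXL2, 732, 525 and 598 in MLC with IL-1β, and 572, 485 and 536 in MLC labelled LOXL2. The treatments overlapped by a single library in SLC, and the layers were apart by 1.15 ± 0.13 under IL-1β (adjusted p = 4.90e-06). TTK, the MPS1 kinase at the head of the checkpoint (chr9:7009553-7050706), had counts of 147, 225 and 147 and then 131, 78.3 and 99.6 in SLC, and of 496, 379 and 448 and then 321, 282 and 308 in MLC. For TTK every LOXL2-labelled library lay below every IL-1β library of its layer. Its layer difference was 1.36 ± 0.15 under IL-1β (adjusted p = 3.26e-06). The checkpoint genes BUB1B and MAD2L1 were 1.03 and 1.18 higher in MLC under IL-1β.

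**Figure D2:**
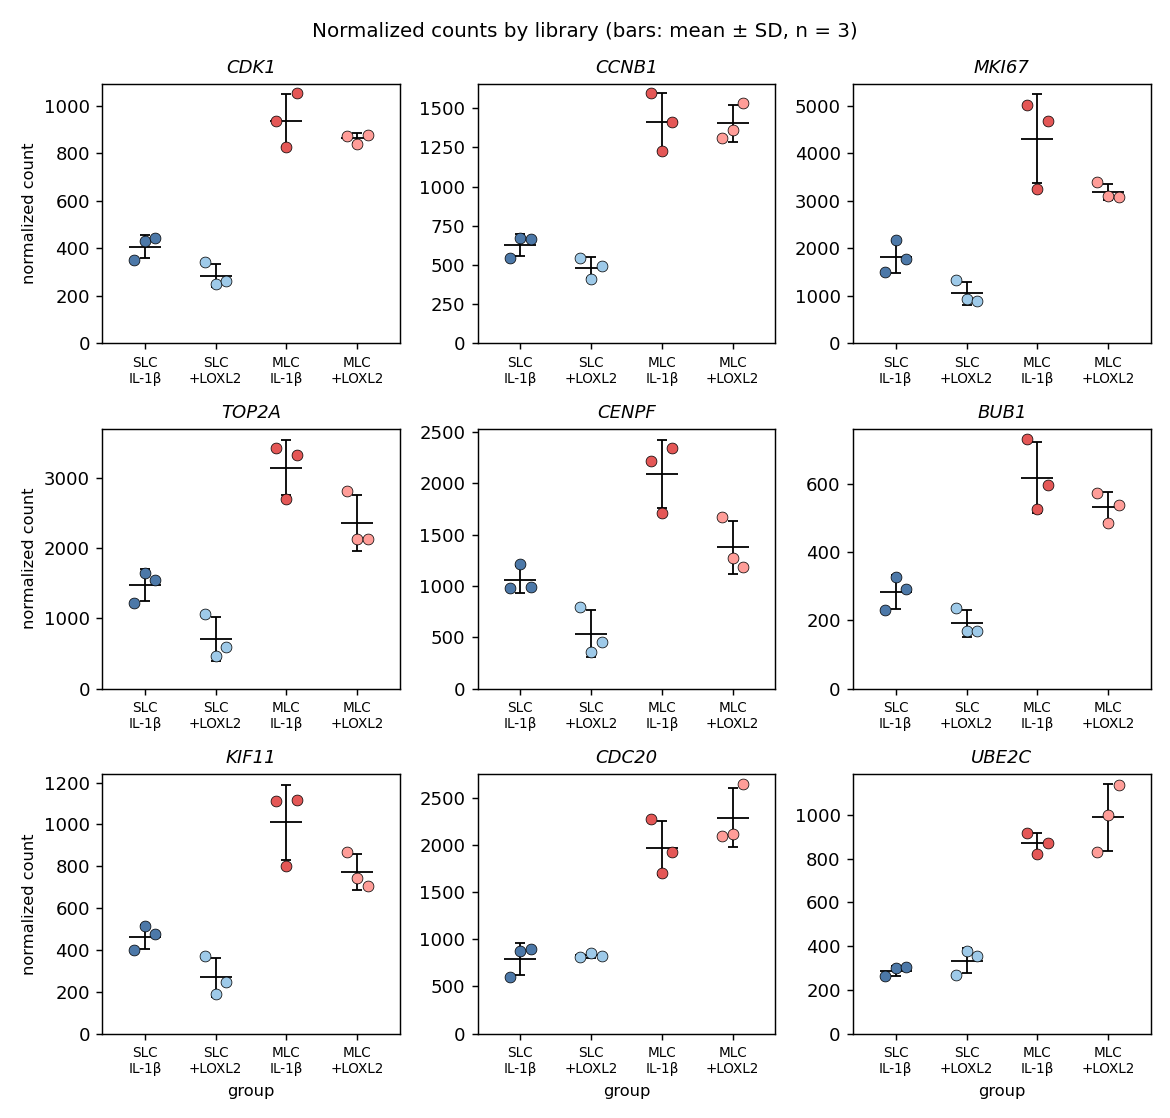
Normalized counts (vertical axes, each starting at 0) of CDK1, CCNB1, MKI67, TOP2A, CENPF, BUB1, KIF11, CDC20 and UBE2C by group (horizontal axis), with a point for each library and a bar for the mean ± SD of 3 libraries. In every panel the 6 MLC points lie above the 6 SLC points of the same or the other treatment, except that CENPF with LOXL2 in MLC meets the SLC IL-1β range (lowest 1181 against a highest of 1213).

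Kinetochore and centromere genes were higher in MLC under IL-1β in 6 of 6 cases, by 1.00 to 1.33. CENPF, a large protein of the outer kinetochore (chr16:67570567-67635127), had 975, 1213 and 993 normalized counts in SLC with IL-1β, 796, 356 and 451 in SLC labelled LOXL2, 2212, 1714 and 2347 in MLC with IL-1β, and 1673, 1268 and 1181 in MLC labelled LOXL2. The LOXL2-labelled libraries were below the IL-1β libraries of their layer without overlap. The layer difference of CENPF was 1.00 ± 0.11 under IL-1β (adjusted p = 2.45e-06). BIRC5, survivin, a subunit of the chromosomal passenger complex, gave 272, 374 and 398 in SLC and 909, 788 and 897 in MLC under IL-1β, a difference of 1.33 ± 0.11 (adjusted p = 2.44e-07). NDC80, which binds microtubules at the kinetochore, showed 233, 158 and 167 in SLC and 544, 599.8 and 608 in MLC among the LOXL2-labelled libraries, a difference of 1.66 ± 0.18 (adjusted p = 0.00111). CENPE, a kinetochore motor, had 352, 196 and 229 against 877, 817 and 763 in those libraries, a difference of 1.67 ± 0.23 (adjusted p = 0.00265). The SLC and MLC groups of both genes were far apart relative to the spread within them. The other members, CENPA, the centromeric histone H3 variant, and NUF2, the partner of NDC80, were 1.18 and 1.15 higher in MLC under IL-1β.

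Among motors and spindle-associated proteins, 11 of 11 were higher in MLC under IL-1β, within a narrow range of 0.90 to 1.21. KIF11, the motor that pushes spindle poles apart (chr26:37324360-37366168), had 399.9, 512 and 477 against 374, 189.5 and 246 normalized counts in SLC and 1113, 801 and 1116 against 869, 744 and 704 in MLC. Its treatment groups were separate in SLC and overlapped in MLC, and the layer difference was 1.14 ± 0.12 under IL-1β (adjusted p = 1.92e-06). KIF4A, a chromosome-bound motor on the X chromosome (chrX:11177125-11304219), gave 283, 343 and 324 against 207, 169 and 192 in SLC and 697, 578 and 695 against 596, 599.8 and 575 in MLC. Its SLC groups did not overlap, while its MLC groups did. The layer difference of KIF4A was 1.07 ± 0.10 under IL-1β (adjusted p = 4.41e-07) and 1.65 ± 0.14 in the LOXL2-labelled libraries (adjusted p = 0.000398). KIF20B, a motor of late mitosis, had 397, 497 and 482 against 339.5, 196 and 257 in SLC and 994, 757 and 920.4 against 773, 658 and 635 in MLC, where the lowest IL-1β library lay inside the LOXL2-labelled range. The other 8, which are the motors KIF2C, KIF20A and KIF23 and the spindle proteins TPX2, HMMR, NUSAP1, CKAP2 and DLGAP5, differed by 0.90 (CKAP2) to 1.21 (KIF2C).

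Genes of chromosome structure were 1.05 to 1.27 higher in MLC under IL-1β, 5 of 5 past the threshold. TOP2A, the topoisomerase that untangles sister chromatids (chr19:40273646-40299660), showed 1223, 1645 and 1549.9 normalized counts in SLC with IL-1β, 1055, 463 and 594 in SLC labelled LOXL2, 3420.5, 2692 and 3319 in MLC with IL-1β, and 2814, 2122 and 2121 in MLC labelled LOXL2. In SLC the treatments were separate, with the second LOXL2-labelled library lowest, and in MLC a single pair of libraries crossed. Its layer difference was 1.11 ± 0.11 under IL-1β (adjusted p = 6.32e-07) and 1.75 ± 0.31 in the LOXL2-labelled libraries (adjusted p = 0.00816). MKI67, the Ki-67 protein that coats mitotic chromosomes and marks dividing cells (chr26:4510843-4540461), had 1500.5, 2172 and 1764 against 1324, 932 and 899 in SLC and 5003, 3237 and 4668 against 3388, 3099.5 and 3072 in MLC. Its layer difference was 1.27 ± 0.14 under IL-1β (adjusted p = 3.80e-06). SMC2, a condensin ATPase (chr8:93652862-93705914), had 443, 529.8 and 458 against 393, 104 and 208 in SLC and 1110.0, 743 and 1080.0 against 832, 547 and 579 in MLC. The SLC LOXL2-labelled group of SMC2 was wide, with the first library close to the IL-1β libraries and the second far below them. Its condensin partner SMC4 (chr1:106579770-106612479) gave 775, 876 and 870.5 against 659, 519 and 528 in SLC and 1789.6, 1586 and 1809 against 1469, 1194 and 1207 in MLC, with no overlap of treatments in either layer. The condensin subunit gene NCAPG was 1.10 higher in MLC under IL-1β.

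Both cytokinesis genes followed the same layer pattern. ANLN, the scaffold anillin of the contractile ring (chr4:59363840-59417662), had 2103, 2639.6 and 2368 against 2006, 808 and 1128 normalized counts in SLC and 5739, 4051 and 5385 against 4272, 3249 and 3291 in MLC. ECT2, the exchange factor that activates RhoA at the cell equator (chr1:94258389-94326443), had 309, 355 and 347 against 263, 126 and 164 in SLC and 584, 452 and 526 against 425, 369 and 344 in MLC. The treatments of ECT2 did not overlap in either layer, and those of ANLN overlapped in MLC only. Layer differences under IL-1β were 1.11 ± 0.11 for ANLN (adjusted p = 1.02e-06) and 0.65 ± 0.10 for ECT2 (adjusted p = 9.42e-05), the latter the second smallest of the 40.

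**Figure D3:**
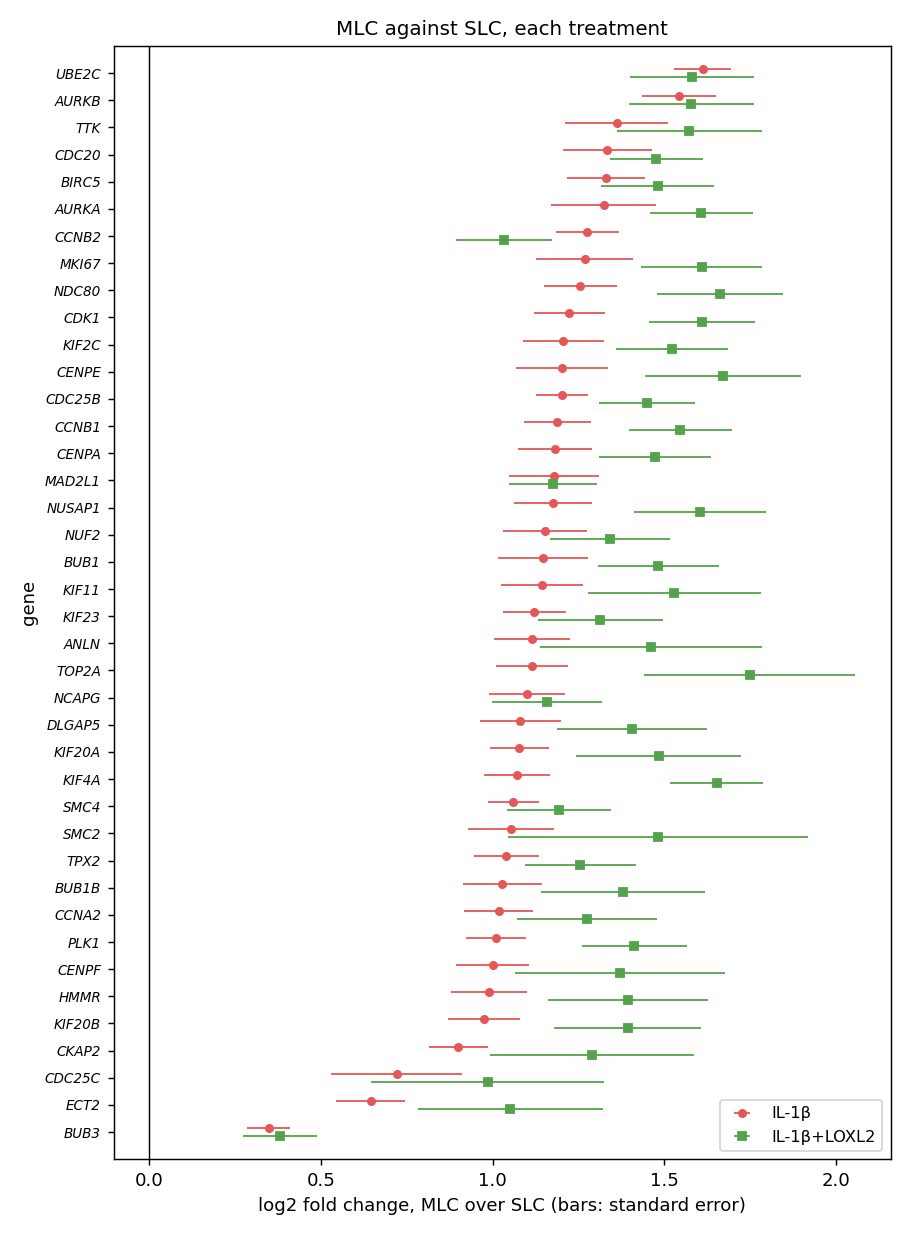
Log2 fold change of MLC over SLC (horizontal axis, bars show the standard error) for each of the 40 genes (vertical axis), with red circles for the 3 against 3 IL-1β libraries and green squares for the 3 against 3 LOXL2-labelled libraries. All 80 points lie above 0, from 0.35 to 1.75.

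LOXL2-labelled MLC libraries had lower mRNA for 9 of the 40 mitotic genes, against 11.7% of all 13806 genes tested, and for 0 was it higher, also at an unadjusted p under 0.05, against 9.88% of all genes past the adjusted threshold. The 9 were CENPF (log2 change -0.61 ± 0.14, adjusted p = 0.0214), SMC2 (-0.58 ± 0.17, adjusted p = 0.0363), TTK (-0.54 ± 0.13, adjusted p = 0.0215), ANLN (-0.49 ± 0.14, adjusted p = 0.0299), ECT2 (-0.46 ± 0.13, adjusted p = 0.0297), MKI67 (-0.44 ± 0.14, adjusted p = 0.0421), SMC4 (-0.42 ± 0.11, adjusted p = 0.0235), TOP2A (-0.42 ± 0.13, adjusted p = 0.0371) and KIF20B (-0.37 ± 0.12, adjusted p = 0.0473). They include 4 of 5 genes of chromosome structure and both cytokinesis genes. Of the 9 mitotic kinases, cyclins and phosphatases 0 were called, which for so few genes is not far from the 11.7% of all genes. CDC25C of that role had -0.56 ± 0.20 (adjusted p = 0.0587). CDK1 (-0.12 ± 0.11), CCNB1 (-0.01 ± 0.11) and PLK1 (0.09 ± 0.10) did not pass, with adjusted p values of 0.425, 0.960 and 0.561. Across the 40 genes, 31 had a value below 0, against 49.1% of all genes, and the median was -0.16 against 0.01. For 5 genes, CENPF, TTK, SMC4, ECT2 and CDC25C, the groups were apart, with LOXL2-labelled libraries wholly below the IL-1β libraries, against 19.8% of all genes. With all 12 libraries in a single edgeR fit 0 of the 40 genes and 0% of all genes passed. The number called also moved with single libraries: leaving out IL-1β library 1 or 3, or LOXL2-labelled library 2 or 3, gave 0 calls, against 0% to 3.47% of all genes. Leaving out IL-1β library 2 gave 12, against 4.58% of all genes lower. Leaving out LOXL2-labelled library 1 gave 21, of which 18 were lower, against 24.4% of all genes, and CCNB2, CDC20 and UBE2C were higher, against 23.7%. The second MLC IL-1β library was the lowest of its group for all 40 genes.

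In SLC no mitotic gene passed the threshold between LOXL2-labelled and IL-1β libraries with edgeR, where 0% of the 14164 genes tested did and the smallest adjusted p of any gene was 0.0706. The estimated changes were nevertheless mostly below 0 and larger than in MLC, with 35 of 40 genes below 0 against 49.3% of all genes, a median of -0.50 against 0.01, and a range from -1.06 (TOP2A) to 0.40 (CCNB2). An unadjusted p under 0.05 was reached by 24 genes on the lower side, against 20.2% of all genes, and by 1 on the higher side, CCNB2, against 23%. LOXL2-labelled libraries lay wholly below the IL-1β libraries for 22 genes, against 25.1%, and wholly above for CCNB2, against 23.8%. The smallest p values belonged to KIF4A (-0.74 ± 0.14), SMC4 (-0.56 ± 0.13), MKI67 (-0.78 ± 0.20) and KIF20B (-0.79 ± 0.21), all with an adjusted p of 0.0706. Other values were -0.51 ± 0.17 for CDK1, -0.37 ± 0.15 for CCNB1, -0.32 ± 0.15 for PLK1, -0.56 ± 0.20 for BUB1, -0.99 ± 0.29 for CENPF, -0.78 ± 0.25 for KIF11, 0.11 ± 0.15 for AURKB and 0.07 ± 0.16 for CDC20, with adjusted p values between 0.0706 and 0.739.

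The SLC result depended on the tool and on a single library. With the DESeq2 Wald test, the tool used by the authors, 17 genes were lower, against 13.8% of all genes, and CCNB2 was higher, against 15.4%. The 17 included CDK1, BUB1, TTK, CENPF, KIF11, TOP2A, SMC4 and MKI67. When all 12 libraries shared an estimate of spread, 26 were lower and CCNB2 higher, against 19.3% and 22.8% of all genes. Without the first SLC LOXL2-labelled library, the one that stood apart, 30 were lower, against 31% of all genes, and CCNB2 and UBE2C were higher, against 31.3%. That library was the highest of its group for 34 of the 40 genes, and its median over the 40 genes was -0.20 relative to the mean of the SLC IL-1β libraries, against -0.73 and -0.60 for the second and the third.

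**Figure D4:**
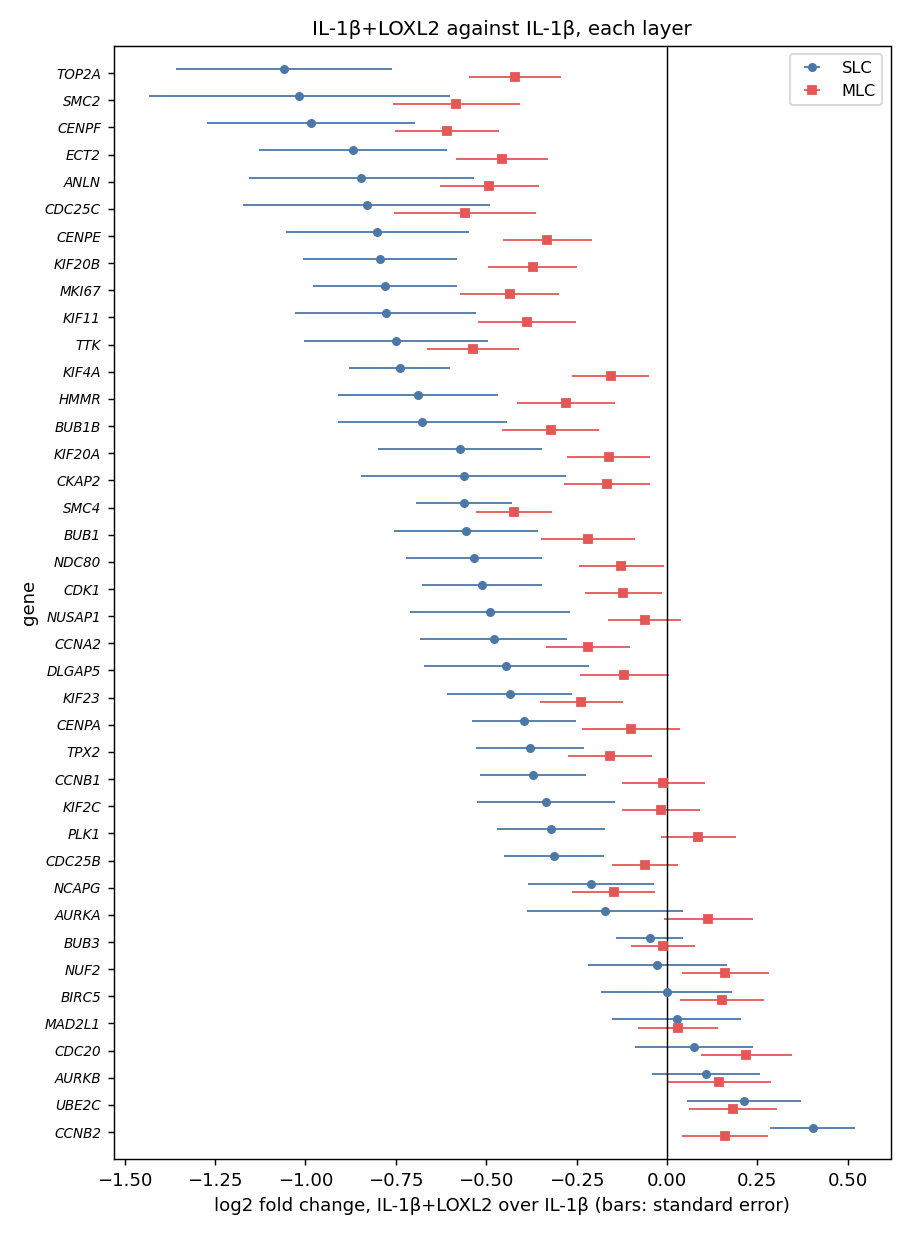
Log2 fold change of LOXL2-labelled over IL-1β libraries (horizontal axis, bars show the standard error) for each of the 40 genes (vertical axis, ordered by the SLC value), with blue circles for SLC and red squares for MLC, 3 libraries against 3 in each. Values run from -1.06 (TOP2A) to 0.40 (CCNB2) in SLC and from -0.61 (CENPF) to 0.22 (CDC20) in MLC. The SLC value is the lower for 38 of 40 genes, against 6600 of the 13524 genes tested in both layers.

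The LOXL2 values of both layers ran in a similar order of genes. The comparisons share no library, and over the 40 genes Pearson's r was 0.908 and Spearman's rho 0.929, close to the 0.852 and 0.867 over all 13524 genes tested in both layers. Genes within a library share its depth and composition, so these are descriptions. A value below 0 in both layers was seen for 31 genes (77.5%, against 43% of all genes). A value above 0 in both was seen for 5 of 40, against 6038 of the 13524 genes. A difference of the LOXL2 effect between layers, fitted as an interaction over the 12 libraries, passed the threshold for 0 mitotic genes and for 0% of all 14446 genes with edgeR, and for 0 mitotic genes with the DESeq2 Wald test. Only 2 mitotic genes had an unadjusted p under 0.05 with edgeR, against 2.26% of all genes. These were KIF4A, whose LOXL2 value was 0.58 ± 0.16 less negative in MLC (adjusted p = 0.958), and PLK1, with 0.40 ± 0.17 (adjusted p = 0.958). CDK1 (0.38 ± 0.19) and CCNB1 (0.35 ± 0.19) followed. The interaction estimate was above 0 for 37 of 40 genes, with a median of 0.33, against 47.2% of all genes and a median of -0.02. Without the first SLC LOXL2-labelled library, 23 mitotic genes had an unadjusted p under 0.05 in this fit, against 27.3% of all genes, and 0 mitotic genes passed after adjustment.

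Long mitotic genes had lower values with the LOXL2 label than short ones. The genomic span, meaning the distance from start to end of the gene with its introns in the RefSeq annotation of ARS1.2, ran from 3476 bases for UBE2C to 127095 bases for KIF4A, with a median of 30672 bases against 20722 over all genes tested in SLC. Across the 40 genes Spearman's rho between span and the LOXL2 log2 change was -0.64 in SLC and -0.65 in MLC, and across all genes it was -0.49 and -0.48. The 10 shortest genes, of at most 9995 bases, had median changes of -0.16 (SLC) and 0.01 (MLC). For the 10 longest, of at least 47889 bases, the medians were -0.80 and -0.35, and all 10 were below 0 in both layers. Each LOXL2-labelled library showed the relation when set against the mean of its layer's IL-1β libraries, with rho between -0.49 and -0.66 over the mitotic genes and between -0.33 and -0.50 over all genes. The third SLC library gave -0.66 and the first SLC library -0.49. Between span and the layer difference, rho over the mitotic genes was -0.44 under IL-1β and -0.11 in the LOXL2-labelled libraries. Over all genes it was -0.11 and 0.07.

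With each library's trend of counts on span removed, rho over the mitotic genes was -0.15 for SLC and -0.11 for MLC. The MLC calls dropped from 9 to 4, which were CENPF, TTK, TOP2A and SMC4, against 6.79% of all genes called lower. In SLC the number called remained 0, with 38 of 40 genes below 0. After the same step 40 genes were higher in MLC past the threshold under IL-1β, against 22.2% of all genes, and 38 in the LOXL2-labelled libraries, against 10.9%. There the uncalled genes were CDC25C and BUB3 in place of CDC25C and SMC2. Span is a property of the annotation, and its part in the LOXL2 values was not tested beyond this removal.

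**Figure D5:**
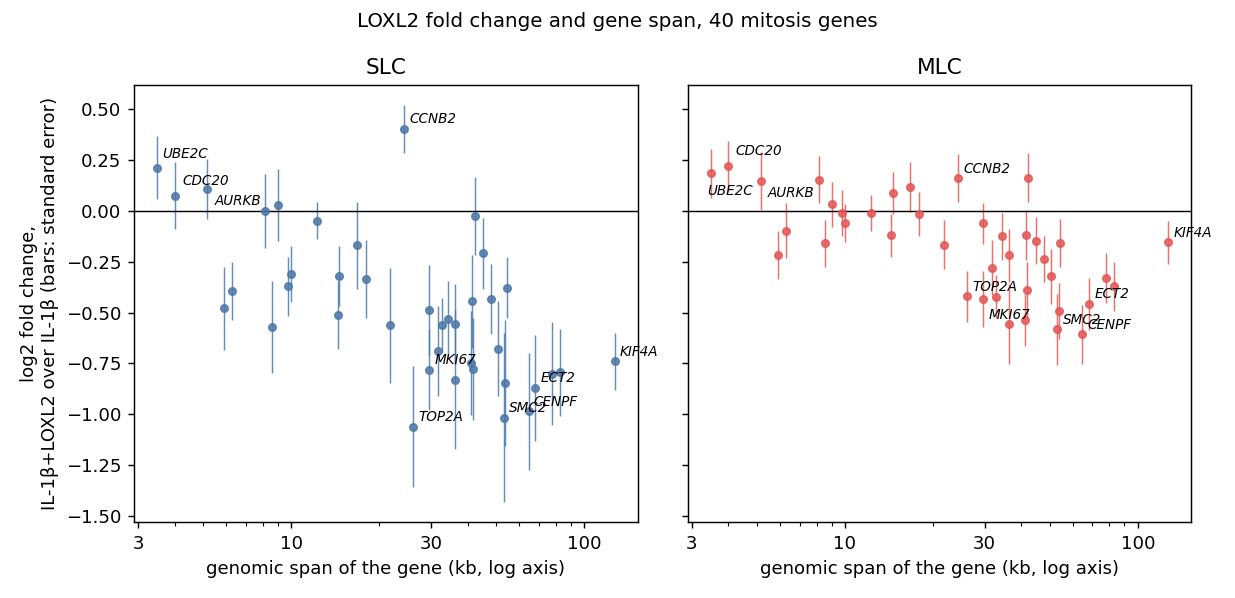
Log2 fold change of LOXL2-labelled over IL-1β libraries (vertical axis, bars show the standard error) against the genomic span of each of the 40 genes (horizontal log axis, kb), for SLC on the left and MLC on the right. Points fall from UBE2C and CDC20 on the left to ECT2, CENPF and SMC2 on the right, with CCNB2 above and TOP2A below genes of similar span in SLC.

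The balance within the group of mitotic genes differed between libraries. The ratio of UBE2C to TOP2A reads, chosen after the values were seen, was 0.215, 0.181 and 0.197 in SLC with IL-1β and 0.254, 0.816 and 0.598 in SLC labelled LOXL2. In MLC it was 0.269, 0.305 and 0.262 with IL-1β and 0.295, 0.471 and 0.537 with the LOXL2 label. In both layers the first LOXL2-labelled library had the lowest ratio of its group, next to or inside the IL-1β range. The ratio of CCNB1 to CDK1, a pair that acts as a single complex, varied less, from 1.34 to 1.88 over the 12 libraries.

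Other genes of the cell cycle, taken from written lists, gave the setting. Of 115 other mitotic genes tested, 88 were higher and 1 lower in MLC under IL-1β, led by FAM83D (1.73 ± 0.09), HJURP (1.53 ± 0.11), TACC3 (1.31 ± 0.10) and GTSE1 (1.54 ± 0.12), and the lower one was the phosphatase gene CDC14B (-1.06 ± 0.11). In the LOXL2-labelled libraries 74 were higher and 0 lower. DNA replication genes were higher in MLC in 40 of 40 cases under IL-1β, with a median of 1.15, led by the helicase subunit MCM2 (1.42 ± 0.08), the polymerase clamp PCNA (1.36 ± 0.08), MCM5 (1.70 ± 0.12) and UHRF1 (1.68 ± 0.12), and 33 of 40 were higher in the LOXL2-labelled libraries. Of all genes, 23.9% were called higher and 22.3% lower in MLC under IL-1β, and 9.16% higher and 6.78% lower in the LOXL2-labelled libraries.

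Of 20 transcription regulators of mitotic genes tested, 8 were higher in MLC under IL-1β, against 23.9% of all genes, and 2 were lower, against 22.3%. The higher ones included FOXM1 (1.82 ± 0.18) and MYBL2 (1.42 ± 0.13), factors that switch on late cell cycle genes, and E2F7 (1.85 ± 0.22), a repressor of the E2F family. RBL2, the p130 pocket protein of quiescent cells, was lower (-0.44 ± 0.07, adjusted p = 0.000222), as was TFDP2 (-0.33 ± 0.08). Of 19 genes of the G1 phase tested, 11 were higher in MLC under IL-1β, against 23.9% of all genes. They were led by E2F1 (2.01 ± 0.15), the cyclin D genes CCND1 (1.00 ± 0.07) and CCND3 (0.65 ± 0.06), and CDKN2C (0.83 ± 0.09), which encodes an inhibitor of cyclin-dependent kinases. The 5 lower ones, a share near the 22.3% of all genes, were led by CDKN1C (-1.62 ± 0.10), CDKN1B (-0.70 ± 0.08), the cyclin D2 gene CCND2 (-0.33 ± 0.06) and CDKN1A (-0.24 ± 0.06), with adjusted p values of 1.08e-08, 4.08e-06, 0.000328 and 0.00421. CDKN1C, CDKN1B and CDKN1A encode inhibitors of cyclin-dependent kinases too, so genes of such inhibitors were found on both sides. In the LOXL2-labelled libraries 6 regulators were higher and 0 lower, and 8 G1 genes were higher and 3 lower. Of all genes 9.16% were higher there and 6.78% lower.

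With the LOXL2 label in MLC, 9 of the 115 other mitotic genes were higher and 14 lower, shares near the 9.88% and 11.7% of all genes. Those higher were led by CDC26 (0.56 ± 0.13), ANAPC16 (0.42 ± 0.11), ANAPC11 (0.49 ± 0.13) and ANAPC15 (0.59 ± 0.15), each encoding a subunit of the anaphase-promoting complex. The complex did not move as a whole, since CDC27, for another subunit and chosen after its values were seen, was lower (-0.36 ± 0.12, adjusted p = 0.0450), with 1148, 1060.3 and 1143 normalized counts against 1025, 839 and 750.2. The lower ones were led by NIPBL (-0.64 ± 0.14), STAG2 (-0.55 ± 0.12) and PDS5A (-0.53 ± 0.12), which load, form or regulate cohesin, and by the motor gene KIF15 (-0.64 ± 0.15). Adjusted p values of the 8 genes leading either direction ran from 0.0196 to 0.0255. Of 20 regulators 1 was higher, LIN37, against 9.88% of all genes, and 7 were lower, led by RBL1 (-0.61 ± 0.15), against 11.7%. FOXM1 had a value of 0.00 ± 0.16. Of 19 G1 genes 1 was higher, CDKN1C (0.45 ± 0.13), and 3 were lower, CDK6, RB1 and CCNE2, against the same shares of all genes. Of 40 DNA replication genes 4 were lower, MCM10, DTL, PRIM1 and POLA1, a share near that of all genes, and 0 were higher. Of 13 cartilage markers tested 1 was higher and 0 were lower. In SLC no gene of these lists passed the edgeR threshold with the LOXL2 label, where no gene of the whole table did, and 14 of the 115 other mitotic genes were higher and 35 lower at an unadjusted p under 0.05, against 23% and 20.2% of all genes.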

How the data were processed

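Poly(A) RNA was sequenced in 12 libraries, 3 for each layer and treatment. Raw gene counts, a table for each layer, were deposited by the authors after mapping paired-end reads to the goat assembly ARS1.2. Per the submitters' processing notes HISAT2 and featureCounts were used, and settings for strand and multiply mapped reads are not given in the sources used here. The quasi-likelihood test of edgeR 4.0.16 (R 4.3.3, TMM, glmQLFit, glmQLFTest) was run on the 6 libraries of each comparison, or all 12 for the interaction, for genes with at least 10 counts in at least 3 of 6 libraries of a layer (either layer for layer comparisons), with Benjamini-Hochberg adjustment over all genes tested and a threshold of 0.05. The standard error was taken from the F statistic (log2 fold change over its root). Normalized counts used DESeq2 1.42.0 size factors over all 12 libraries. Nothing says that replicates came from separate animals or cultures, so p values measure the spread between these libraries, which may be technical. All replicate pairs differed by more than sampling noise, the closest at a chi-square of 2.30 for each degree of freedom.

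The members, the gene lists and the tests were chosen with earlier results of these data known. CDK1, CCNB1, PLK1, AURKB, BUB1, CDC20, CENPF, KIF11, TOP2A and MKI67 were named throughout. Members past the threshold were named if at most 12 in a comparison and direction, otherwise the 6 with the largest change, and where none passed the 4 with the smallest p. From the other lists at most 4 genes per direction were named, by p. Other members named were chosen after their values were seen. Replicate numbers were checked by the correlation of same-numbered libraries' deviations from their group means. It was 0.608, 0.213 and 0.171 between layers in the LOXL2-labelled libraries, and under 0.1 for at least 1 pair elsewhere. The 0.608 belongs to the first libraries, which stood apart in both layers, so pairing remains uncertain there.

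In a test on simulated counts with 200 genes changed 2-fold, 181, 177, 181 and 179 were recovered for LOXL2 in SLC, LOXL2 in MLC, layer under IL-1β and layer with LOXL2, with 5, 11, 9 and 7 false calls. Of changed genes with a mean under 100 counts, 21 of 36, 24 of 45, 24 of 42 and 26 of 44 were recovered, and the pass mark was set on the other genes after a first run. The simulated counts had the same dispersion for every gene and library. The real SLC LOXL2-labelled pairs differed by a chi-square per degree of freedom of 31.0 to 169, against 6.58 to 7.80 in SLC with IL-1β. The recovery counts therefore do not measure what the SLC LOXL2 comparison can detect, where 0 of 14164 genes passed. The same holds for the layer comparison with LOXL2, which used these SLC libraries. MLC LOXL2-labelled pairs differed by 6.10 to 36.0, against 2.30 to 9.93 in MLC with IL-1β, so the recovery count for LOXL2 in MLC is limited too. Alternatives were DESeq2 size factors, the DESeq2 Wald test, other filters on low counts, a replicate block, removal of a lowess trend (0.3) of log2 CPM on gene span, all 12 libraries in a single fit, a minimum change, and leaving out each library.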

Additional observations from a re-analysis of the deposited data

How the results depend on the processing

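The count of mitotic genes higher in MLC under IL-1β was 39 or 40 under all but 1 alternative, against 14.3% to 24.2% of all genes. A minimum change of 1 on the log2 scale kept 33, and the share of all genes at that minimum is not given here. For the LOXL2 effect in SLC the count rose from 0 to 18 with the DESeq2 Wald test, against 29.2% of all genes in either direction. It rose to 27 with all 12 libraries in a single fit, against 42.1%. Leaving out single libraries gave 0 to 32, against 0% to 62.3%. In MLC the count of 9 fell to 4 with the gene span trend removed, against 6.79% of all genes lower. It fell to 0 with all 12 libraries in a single fit, against 0%, and to 0 with a minimum change of 1. Leaving out single libraries gave 0 to 21, against 0% to 48.1% in either direction. The causes were not tested. With the replicate block the counts were 0 in SLC, against 0% of all genes, and 13 in MLC, all lower, against 15.9% lower. Between layers 40 were higher under IL-1β, against 21.4%, and 40 with the LOXL2 label, against 14.3%. In that last comparison 4 of 6 libraries correlated best with their own number. In SLC, in MLC and between layers under IL-1β it was 2, 3 and 0 of 6, and there the numbers did not pair. Removing the span trend turned AURKB to -0.15 and CDC20 to -0.21 in SLC and AURKB to -0.037 in MLC, and none of these passed the threshold before or after. Leaving out libraries gave log2 values from -0.091 to 0.17 for CDC20 in SLC, from -0.10 to 0.089 for CCNB1 and from -0.023 to 0.28 for AURKB in MLC, and from -0.15 to 0.16 for AURKB in the interaction, none of which passed the threshold. Genes with few counts, such as CDC25C, limit what 3 libraries against 3 can show.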
